A study of Mus musculus with 8 samples.

Results

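SOX10 binding sites that carried neither histone mark but lay between 1 and 50 kb from acetylated chromatin are described here, as chromatin immunoprecipitation sequencing (ChIP-seq) peak lists showed them in a mouse melanocyte line. In ChIP-seq, DNA bound by an antibody's target is pulled down and sequenced, and a peak is a stretch where its tags outnumber those of an input library, which had no antibody. A SOX10 consensus site is a stretch where peaks of both SOX10 replicates merged, sharing at least 1 bp, and regions of the acetylated histone H3K27ac and the trimethylated histone H3K27me3 were built in the same way. Of the 4159 SOX10 consensus sites, 800 lay on chromosomes 1 to 19, overlapped no H3K27me3 region and had their nearest H3K27ac region more than 1 kb and at most 50 kb from the site's edge. These 800 are called near sites, 19.2% of all SOX10 sites (95% Wilson interval 18.1 to 20.5%) and 43.1% of the 1854 sites on those chromosomes that overlapped neither mark. The unmarked sites they are set beside are 746 far sites, over 50 kb from H3K27ac, and 308 adjacent sites, within 1 kb of it. A further 2205 sites overlapped H3K27ac, and the remaining 55 and 45 lay at H3K27me3 or off chromosomes 1 to 19. The near sites were chosen by the measured peaks of both lists of all 3 antibodies, so their distances and the lack of marks are a description.

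The cells were melan-Ink4a-Arf-1, also labelled melan-a, an immortalised line of melanocytes from embryonic skin of mice with the genotype Cdkn2a tm1RDp/tm1RDp, grown with 200 nM of the phorbol ester TPA and 200 pM cholera toxin. Each of the 3 antibodies, against SOX10, H3K27ac and H3K27me3, was used in 2 libraries from independent experiments, and all 6 ChIP libraries and both inputs came from this 1 line under the same conditions. There was no condition to compare, and the identity of the cells was not checked against marker genes here. The SOX10 libraries kept 6440395 and 8985699 tags, the H3K27ac libraries 45583056 and 44416913, and the H3K27me3 libraries 67060647 and 71987481. The SOX10 input kept 12059585 tags and the input of both histone marks 42782172. Both replicates' values are given throughout, and no test over libraries was made, because an exact permutation of 2 paired libraries cannot give a two-sided p below 0.5. Wilson intervals cover counting error only, and sites of 1 library are not independent replicates. All positions refer to mouse build mm9, and genes at the sites are not named here.

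SOX10 is a transcription factor of the SOX family, whose members bind short DNA motifs through a high mobility group domain and bend the DNA. It is needed for melanocytes to form from the neural crest and to survive, and in melanocytes it works from promoters and from enhancers that can lie far from a gene. Active enhancers and promoters carry H3K27ac on the nucleosomes beside the bound factors, and the DNA under the factors often holds few nucleosomes. H3K27me3 is written by the Polycomb group enzyme EZH2 and covers genes that are kept silent. The study set out to sort SOX10-regulated genes by mechanism, and sites with neither mark lie outside the classes that the marks alone define.

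Near sites filled the range between both distance limits. The median distance to the nearest H3K27ac region was 13141 bp, and the quartiles were 4133.5 and 26492.5 bp. Within 2 kb lay 99 near sites, within 5 kb 224, within 10 kb 334 and within 20 kb 512, that is 64.0%. The limits cut through a continuous spread of distances. Just beyond the 1 kb limit lay the near sites chr15:99376662-99377876 at 1003 bp, chr7:56638041-56639196 at 1009 bp and chr2:75639076-75640494 at 1010 bp from H3K27ac. Their SOX10 fold enrichments, the authors' ratio of tags at the summit to the input background, were 7.73, 12.2 and 15.2 in replicate 1 and 9.5, 16.1 and 15.0 in replicate 2. The adjacent sites just within 1 kb, at 982, 979 and 968 bp, had folds of 12.2, 10.5 and 16.4 in replicate 1 and 12.7, 10.2 and 13.2 in replicate 2. At the other end, chr15:9018631-9019600 lay 49889 bp, chr18:80745248-80746309 49875 bp and chr4:120674682-120675762 49851 bp from H3K27ac, with folds of 11.7, 11.8 and 18.4 in replicate 1 and 11.6, 9.20 and 13.5 in replicate 2. The first far sites, at 50201, 50421 and 50635 bp, had folds of 14.5, 19.8 and 9.02 in replicate 1 and 14.0, 9.04 and 8.22 in replicate 2. Folds on both sides of either limit fell in the same range.

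**Figure D1:**
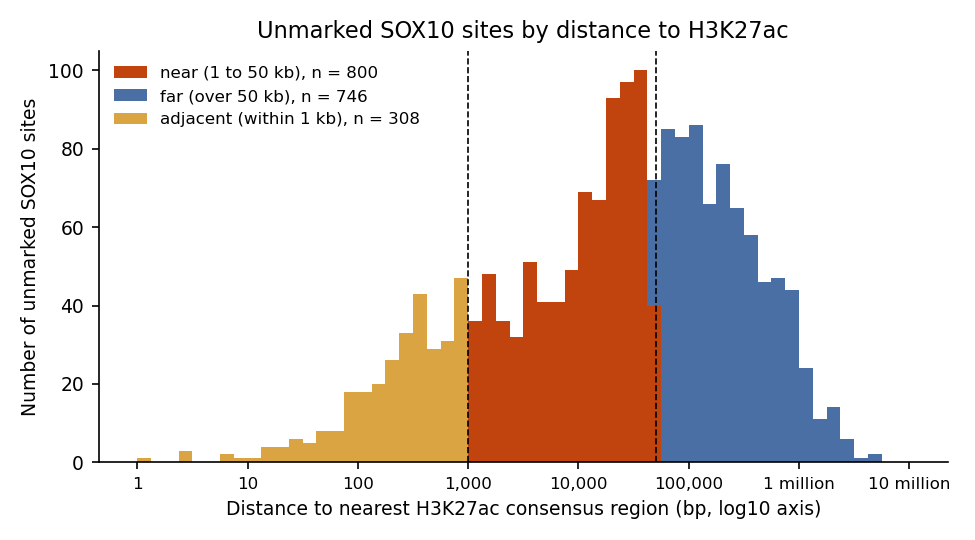
Number of unmarked SOX10 sites (vertical axis) by distance in bp to the nearest H3K27ac consensus region on a log10 axis, with near sites in red, far sites in blue and adjacent sites in yellow, stacked where a bin holds more than 1 set. Dashed lines mark 1 and 50 kb, and the counts run through both limits without a gap.

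The SOX10 signal of near sites was moderate, with a few strong sites. Fold enrichment had a median of 11.9 in both replicates, from 5.15 to 36.6 in replicate 1 and from 4.10 to 46.2 in replicate 2. Summit height, the number of tags piled up at the summit as recovered from the authors' fold and p, had a median of 12.0 tags in replicate 1 (quartiles 10.0 and 16.0) and 16.0 tags in replicate 2 (quartiles 12.0 and 22.0). Counts of this size leave wide counting error on any single site. The authors' false discovery rate (FDR) was at most 5% at 99.9% of near sites in replicate 1 and 85.4% in replicate 2. Over all SOX10 sites the shares were 99.5% and 87.8%. A median near site was 1043 bp wide, 795 of the 800 were made of 1 peak of each replicate, and the summits of both replicates were a median of 46 bp apart. Across the 800 sites the log2 folds of both replicates correlated with Pearson r = 0.574 and Spearman rho = 0.539, where the sites share their 2 libraries and every site had to pass the peak threshold in both. The folds differed by more than 2-fold at 3.5% of near sites.

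The strongest near site by the mean log2 fold of both replicates was chr2:128534505-128535739, with folds of 36.6 in replicate 1 and 37.98 in replicate 2 and summit heights of 44.0 and 61.9 tags. Its nearest H3K27ac region lay 21330 bp away, 9 such regions lay within 50 kb, and neither H3K27ac list had a peak at the site. The next, chr14:20739190-20740238, had folds of 34.3 and 37.2 and lay 43607 bp from its only H3K27ac region within 50 kb. Both were far above the median near site in both libraries. They were followed by chr7:87030871-87031874, with folds of 26.4 and 40.1, 4079 bp from H3K27ac. That site overlapped a peak of each H3K27ac list, and those peaks did not meet each other, so they formed no consensus region. Replicate 2 was higher at the next pair as well, with folds of 23.4 and 37.1 at chr15:59379914-59381222 and of 17.99 and 46.2 at chr19:53356752-53357571. The remaining 5 of the highest 10 had folds between 26.1 and 29.3 in both replicates. They were chr8:98278576-98279677, chr2:144135731-144136823, chr2:94759059-94760250, chr3:19305692-19307003 and chr8:11094191-11095207. The site on chromosome 3 lay 97 bp from an H3K27me3 region and 3422 bp from an H3K27ac region, and its input background was 2.06 and 2.22 times the genome-wide level.

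**Figure D2:**
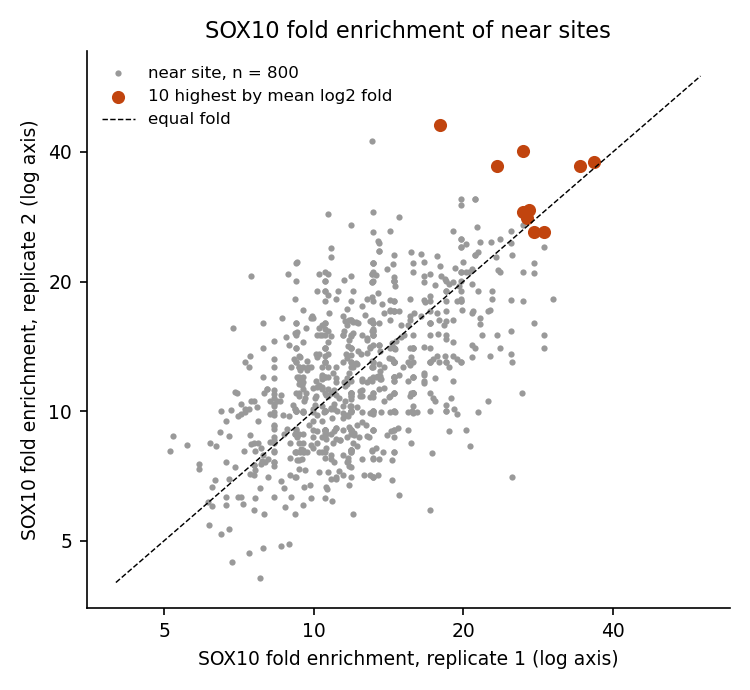
SOX10 fold enrichment of the 800 near sites in replicate 1 (horizontal) and replicate 2 (vertical), both on log axes, with 1 point per site, the 10 highest in red and a dashed line where both are equal. The strongest site had 36.6 and 37.98, and the red point farthest above the line had 17.99 and 46.2.

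The replicates disagreed most at 3 other sites. At chr11:107241467-107242165 the fold was 25.04 in replicate 1 and 7.02 in replicate 2, and at chr14:46159327-46160360 it was 17.1 and 5.89. At chr19:17460491-17461661 it was 13.1 in replicate 1 and 42.5 in replicate 2. That site had another near site, chr19:17461848-17463358, 187 bp away, with folds of 9.38 and 12.5. The widest near sites did not have high folds. The widest, chr3:96303177-96305981, was 2805 bp long with folds of 8.72 and 6.62, and its input background was 3.33 and 3.48 times the genome-wide level in replicates 1 and 2. It was followed by chr1:91026608-91029038 with folds of 14.6 and 13.9 and chr14:102006827-102008951 with 12.1 and 8.82. Input background at these was between 2.53 and 3.75 times the genome-wide level, where the median near site had 1.27.

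In SOX10 signal the near sites differed from far sites by about the spread between replicates or less. Mean log2 fold was 3.62 and 3.605 at near sites in replicates 1 and 2 and 3.63 and 3.66 at far sites, a difference of -0.03 ± 0.03 (SD, n = 2 replicates). Summit height scaled to the library's kept tags (RPM) had medians of 1.86 and 1.78 RPM at near sites and the same medians at far sites, with a mean log2 difference of 0.01 ± 0.03 (SD, n = 2), positive in replicate 1 and negative in replicate 2. Input background had medians of 1.27 and 1.27 times the genome-wide level at near sites and 1.15 and 1.17 at far sites, with a mean log2 difference of 0.04 ± 0.01 (SD, n = 2). Both SOX10 replicates were called against the same input library, so a like input difference in both is not replication. Their folds share that input as well. Input background stood at the genome-wide level, or below it, in both replicates at 24.1% of near sites, 32.7% of far sites and 15.6% of all SOX10 sites. The lower quartile was 1.0 times that level for near and far sites in both replicates. The lowest recovered values were 0.821 and 0.738 times the genome-wide level at near sites and 0.668 and 1.0 at far sites in replicates 1 and 2.

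Against sites at H3K27ac the near sites had the lower summits. Median heights were 12.0 and 16.0 tags at near sites and 16.0 and 22.0 tags at sites overlapping H3K27ac, with a mean log2 difference in RPM of -0.40 ± 0.04 (SD, n = 2). Fold enrichment went the other way, 0.20 ± 0.03 higher at near sites on the log2 scale (SD, n = 2), and input background was lower by 0.60 ± 0.01, with medians of 1.27 and 1.27 against 1.91 and 1.98 times the genome-wide level. The height and fold differences exceeded the spread between replicates, and the input difference comes from the input library that both replicates share. Fold is summit height over input background, so the log2 fold difference equals the height difference minus the input difference. The 3 values are therefore not separate results, and their cause was not tested. In the highest 10% of all SOX10 sites by summit height lay 3.38% and 3.88% of near sites in replicates 1 and 2, against 15.2% and 14.9% of sites at H3K27ac. Adjacent sites lay in between in summit height and input background. In log2 fold they were level with near sites, with a near minus adjacent difference of -0.004 ± 0.02 (SD, n = 2). The near minus adjacent difference in log2 height was -0.08 ± 0.02 (SD, n = 2).

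**Figure D3:**
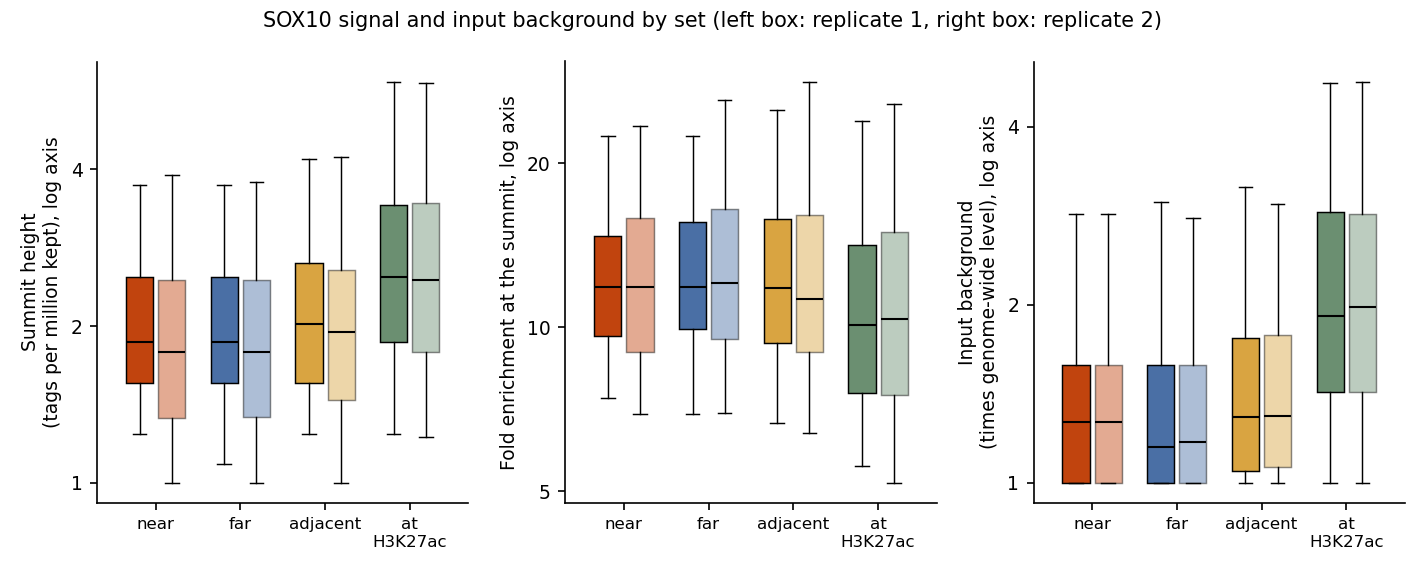
Summit height in RPM (tags scaled to the kept tags), fold enrichment at the summit and input background in times the genome-wide level, each on a log axis, for near, far, adjacent and H3K27ac-overlapping SOX10 sites. Boxes run between the quartiles with the median as a line and whiskers reach from the 5th to the 95th percentile of sites, for replicate 1 (dark) and replicate 2 (light). Near and far boxes lie at about the same level in summit height and fold. In input the near medians are 1.27 and 1.27 and the far medians 1.15 and 1.17, and sites at H3K27ac have higher summits and a higher input.

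Many near sites did overlap an H3K27ac peak that entered no consensus region. The rule asked for regions with peaks of both replicates, so peaks that had no partner in the other list did not count as marks. A peak of H3K27ac replicate 1 overlapped 143 near sites, 17.9% (15.4 to 20.7%), and a peak of replicate 2 overlapped 185, 23.1% (20.3 to 26.2%). Over all 1854 unmarked SOX10 sites the shares were 16.7% and 21.2%, so near sites stood close to the unmarked sites as a whole. Over all 4159 SOX10 sites, with those at H3K27ac included, they were 59.8% and 61.9%. The far sites were lower, with 7.37% (5.71 to 9.47%) and 11.9% (9.80 to 14.5%), and the adjacent sites higher, with 36.4% and 38.6%. Near exceeded far by 10.5 percentage points in replicate 1 and by 11.2 in replicate 2, 10.8 ± 0.49 (SD, n = 2). Near and far were split by distance to regions built from these same lists, so the split and this share are not independent. In all, 291 near sites, 36.4%, overlapped a peak of either list, where 33.0% of all unmarked sites did, and 509 had none.

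Near and far sites were also set side by side in subsets. Among the 193 near and 244 far sites with the input background at its genome-wide level in both replicates, 14.0% and 17.1% of near sites overlapped an H3K27ac peak of replicates 1 and 2, against 2.05% and 6.97% of far sites. When distances were taken from the peaks of H3K27ac replicate 2 alone, 13.4% of 633 near sites and 4.71% of 446 far sites overlapped a peak of replicate 1. With distances from replicate 1 alone, 21.0% of 689 near sites and 7.39% of 487 far sites overlapped a peak of replicate 2. Near and far sites also differed in how many unpaired H3K27ac peaks lay around them. With each site moved by 5 kb to the left or to the right, between 4.62% and 7.12% of the moved near sites overlapped an H3K27ac peak outside consensus regions, against between 0.938% and 1.21% of the moved far sites. At their true positions both sets therefore had higher shares than 5 kb away, in both lists.

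The share was lower at longer distances, though not at every step, and 50 kb was no break. From 1 to 2 kb of an H3K27ac consensus region, 24.2% and 36.4% of 99 near sites overlapped a peak of replicates 1 and 2. Between 10 and 20 kb it was 17.4% and 16.9% of 178 near sites. Between 20 and 50 kb it was 14.2% and 22.2% of 288 near sites, and between 50 and 100 kb 13.0% and 17.0% of 200 far sites. Beyond 200 kb it was 4.79% and 9.86% of 355 far sites. SOX10 summit heights showed no such trend, with medians between 12.0 and 13.0 tags in replicate 1 and between 15.0 and 17.4 in replicate 2 over these distances.

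**Figure D4:**
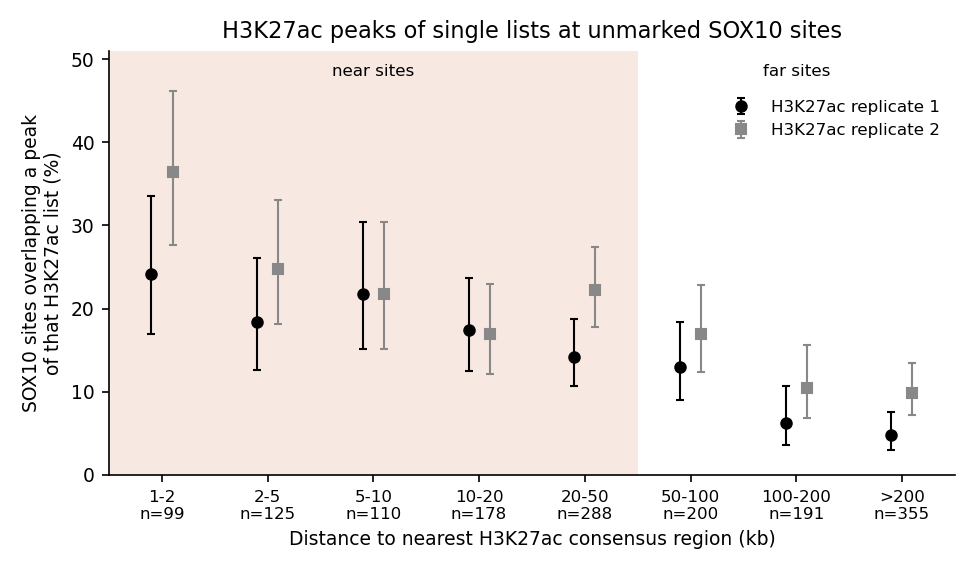
Share of unmarked SOX10 sites (percent) that overlapped a peak of H3K27ac replicate 1 (circles) or replicate 2 (squares), by distance in kb to the nearest H3K27ac consensus region, with 95% Wilson intervals and the number of sites in each bin. Near sites are shaded, and the shares run from 24.2% and 36.4% at 1 to 2 kb to 4.79% and 9.86% beyond 200 kb.

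The H3K27ac peaks at near sites were weak. Those of replicate 1 numbered 166, with a median fold of 7.71, 25.5 tags and a median width of 248.5 bp, and those of replicate 2 numbered 207, with 7.67, 26.0 tags and 266 bp. Peaks outside consensus regions in general held a median of 23.0 tags in both lists and were narrower, with median widths of 227 and 233 bp. Peaks inside consensus regions held 39.0 and 41.0 tags. An authors' score of at least 100, where the cutoff for a peak was 50, was reached by 24.1% and 25.1% of the H3K27ac peaks at near sites. H3K27ac peaks at far sites reached it at 23.3% and 23.7%, so these shares were not particular to near sites. Among all peaks outside consensus regions 13.7% and 16.0% reached it, and among peaks inside them 56.5% and 59.2%. Near sites with such a peak had taller SOX10 summits, with medians of 13.0 and 18 tags at the 291 sites with a peak of either list and 11.5 and 15.0 tags at the 509 without. Their fold enrichment was not higher, with medians of 11.8 and 11.8 at sites with a peak and 11.9 and 12.0 at those without, a mean log2 difference of -0.041 and -0.045. They were also wider, with a median of 1102 against 999 bp, and had more input, 1.35 and 1.43 against 1.14 and 1.14 times the genome-wide level. Mean log2 summit height was higher by 0.195 and 0.183 at sites with a peak, and mean log2 input by 0.236 and 0.228. Fold is summit height over input, so the fold difference is the height difference minus the input difference. The part of width in the height difference, and the cause, were not tested.

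These peaks mostly flanked the SOX10 summit. A peak of H3K27ac replicate 1 covered the summit at 11 near sites, 1.38% (0.769 to 2.45%), the position 500 bp to the left at 40, 5.00% (3.69 to 6.74%), and 500 bp to the right at 48, 6.0% (4.56 to 7.87%). In replicate 2 the summit was covered at 19, 2.38% (1.53 to 3.68%), and either flank at 54, 6.75% (5.21 to 8.70%). Far sites had the same shape at lower levels, with 3 and 10 of 746 summits covered in replicates 1 and 2 and between 11 and 28 at the positions 500 bp away. Peaks of both lists that meet form a consensus region, which the rule bars from the summit and both flanks of these sites. The near and far values therefore count unpaired peaks only, and the part of the rule in the dip was not tested. Sites at H3K27ac, where paired peaks are allowed, had a dip as well. Of their 2205 summits, 511 and 596 were covered in replicates 1 and 2, and between 1301 and 1329 of the positions 500 bp away. Of the 143 near sites with a replicate 1 peak, it lay left of the summit at 52, right of it at 66, on both sides at 14 and over the summit at 11. For the 185 sites with a replicate 2 peak the numbers were 78, 73, 15 and 19.

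At 37 near sites, 4.62% (3.37 to 6.31%), both H3K27ac lists had a peak without forming a consensus region there. Over all unmarked SOX10 sites the share was 4.91%, so near sites stood at the level of unmarked sites in general. It was 1.47% at far sites and 14.0% at adjacent sites. Of the 37 near sites, 23 had the peaks on opposite sides of the SOX10 summit and 4 had them on the same side. Peaks on the same side meet more easily and would then have formed a consensus region, which removes the site from the set, so the rule favours the opposite placement. The authors called H3K27ac with a distance between strands of 50 and 51 bp in replicates 1 and 2, where the tags were 51 bp long.

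**Figure D5:**
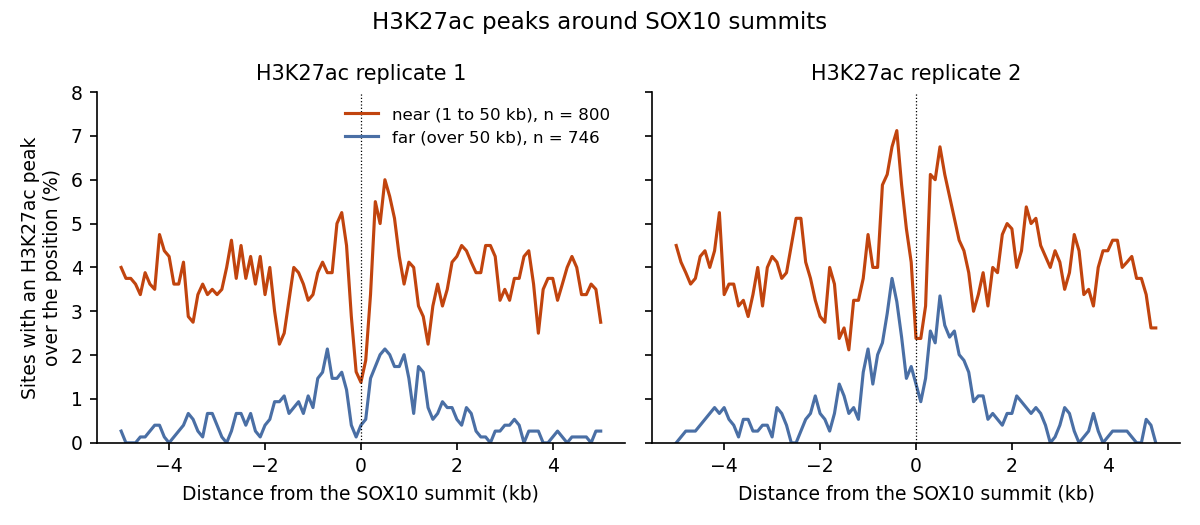
Share of near (red) and far (blue) SOX10 sites with an H3K27ac peak over positions from 5 kb left to 5 kb right of the SOX10 summit, for H3K27ac replicate 1 and replicate 2, with consensus regions included beyond the limits that the rule sets. In near sites the share was 1.38% and 2.38% at the summit and between 5.00% and 6.75% at 500 bp, and far sites had the same dip at lower levels.

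The acetylated regions nearest to these sites were ordinary ones. The 800 near sites had 762 different nearest H3K27ac regions, 402 to the left of the site and 398 to the right. Their median width was 500.5 bp and their median fold 8.21, against 547 bp and 8.53 for all 36655 H3K27ac consensus regions. Of the near sites, 64, 8.0% (6.31 to 10.1%), had a nearest H3K27ac region that itself overlapped another SOX10 site, where 9.66% (9.36 to 9.96%) of all H3K27ac regions did. So the nearest acetylated region was seldom a SOX10 site of its own, at about the share of any H3K27ac region. This share moved with the peaks that were counted. It was 2.63% with only SOX10 peaks of a score of at least 100 and 16.6% with all peaks of SOX10 replicate 2 as sites, 13.6% with only H3K27ac peaks of a score of at least 100, and 5.21% and 5.66% with all peaks of H3K27ac replicate 2 or replicate 1 as regions.

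The surroundings of near sites ranged from a lone H3K27ac region to dense acetylation. The median near site had 3 H3K27ac regions within 50 kb. At 235 sites there was 1 such region, and at 100 sites there were 10 or more. The most, 38, lay around chr16:11039062-11040202, chr9:41317608-41318487 and chr12:70586484-70587539. Their SOX10 folds were 10.5, 10.7 and 11.4 in replicate 1 and 19.1, 12.7 and 9.89 in replicate 2. Of these values only the 19.1 lay outside the quartiles of near sites, above the upper quartile of 15.8 in replicate 2. H3K27ac lay within 50 kb on both sides of 281 near sites and on 1 side of 519. Single-list H3K27ac peaks overlapped 22.8% and 30.2% of the sites with H3K27ac on both sides and 15.2% and 19.3% of those with it on 1 side. By number of regions the shares were 14.0% and 17.9% with 1 region and 26.0% and 31.0% with 10 or more, while median summit heights were 13.0 and 17.0 tags with 1 region and 12.0 and 16.0 with 10 or more. Crowded sites also lay closer to H3K27ac, at a median of 4372.5 bp against 22617 bp for sites with 1 region, so number and distance go together here.

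Near sites often had another SOX10 site in the neighbourhood. For 343 of the 800, 42.9% (39.5 to 46.3%), the next SOX10 site lay within 50 kb, where 41.2% of all SOX10 sites and 17.6% (15.0 to 20.5%) of far sites had one. Near sites thus stood at the level of SOX10 sites in general. The next site was one at H3K27ac for 186 of these 343 and another near site for 108, and it was an adjacent site for 36. For 7 it was a far site and for 6 a site at H3K27me3. Within 10 kb of another SOX10 site lay 100 near sites, and within 5 kb 46. With 1 H3K27ac region within 50 kb, 25.5% of near sites had another SOX10 site within 50 kb, and with 10 or more regions it was 74.0%. The rule bears on these numbers, because a SOX10 site at H3K27ac within 50 kb brings an acetylated region that makes a site near and cannot lie so close to a far site.

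H3K27me3 regions were also found around near sites. An H3K27me3 region lay within 50 kb of 461 near sites, 57.6% (54.2 to 61.0%), against 40.3% (36.9 to 43.9%) of far sites and 53.4% of sites at H3K27ac. Adjacent sites were level with near sites, at 57.1% (51.6 to 62.5%). All SOX10 sites that overlapped no H3K27me3 region gave 51.5%. Within 1 kb it lay at 30 near sites, 3.75% (2.64 to 5.30%), where the background was 2.56% and far sites had 5.90%. At 228 near sites, 28.5%, the nearest H3K27me3 region was closer than the nearest H3K27ac region. These had median summit heights of 12.0 and 17.5 tags and overlapped single-list H3K27ac peaks at 18% and 19.7%, against 12.0 and 16.0 tags and 17.8% and 24.5% at the 572 others, and the intervals of these shares overlapped. Of the 519 near sites with H3K27ac on 1 side, 205 had H3K27me3 within 50 kb on the opposite side and 213 on the same side. H3K27me3 peaks of a single list overlapped 5 near sites in replicate 1 and 11 in replicate 2, 0.625% and 1.38%, where 0.593% and 0.971% of all unmarked sites did.

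Near sites were spread over all 19 numbered chromosomes, from 20 on chromosome 17 to 76 on chromosome 2. As a share of each chromosome's SOX10 sites they made up between 11.6% and 25.2%. Chromosome 6 had the lowest share, 32 of 276 sites (8.33 to 15.9%), followed by chromosome 8 with 26 of 191, 13.6% (9.46 to 19.2%). Chromosome 16 had the highest, 33 of 131 (18.5 to 33.3%). Without chromosome 6 there were 768 near sites, and near exceeded far in single-list H3K27ac peaks by 10.5 percentage points.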

How the data were processed

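MACS 1.4.2 was run by the authors on each ChIP library, per the file headers, which give a p cutoff of 1e-05 and a limit of 1 tag per position. Coordinates are mm9, per the submitters' processing notes. Which aligner was used is not given in these sources. Each deposited list holds a count of tags per peak, the peak's p as -log10 times 10 (called the score, with a cutoff of 50), the authors' fold enrichment and the authors' FDR in percent. SOX10 and H3K27ac had a local background from 1000 and 10000 bp of input and H3K27me3 had none, per the file headers. The input libraries have no list here. 1 SOX10 list has a garbled header cell, so columns were taken by position.

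Computed here (Python 3.11.15, numpy 2.4.6, pandas 2.3.3, scipy 1.17.1): consensus regions, distances between edges (or summits), and each site's peak with the highest fold in each replicate. The input background is the Poisson mean at which a peak's tags give its p. Values less than 5% above the genome-wide level, lower ones included, were counted as at it. Summit height is fold times that background scaled to the authors' strand distance, and it was within 0.05 of a whole tag at 96.1% and 96.5% of near sites. Differences between sets are of mean log2 values per replicate. The code was tested on simulated data. Sites were named by rank in fold, width, distance, H3K27ac regions around them and replicate difference. The members and lists were chosen with earlier results of these data known. A planned count of SOX motifs was not made, and genes and bases at the sites are not given, since no mm9 genome was used here.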

Additional observations from a re-analysis of the deposited data

How the results depend on the processing

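The number of near sites was 800 and stayed within 1.5 times of it under the alternatives run other than a score of at least 100 for SOX10 peaks (190) and an outer limit of 20 kb (512). Leaving out 1 library, with all peaks of its partner list used, gave 633 to 2205 near sites, with 2205 without SOX10 replicate 1 and 1445 without SOX10 replicate 2. The near minus far difference in log2 fold was below 0 in every alternative run and, with all libraries kept, within 1 SD of the reported value, and ranged from -0.0724 to -0.0248 with 1 library left out. The difference in log2 summit height changed sign with the setting. It was -0.0264 with SOX10 scores of at least 100, -0.0162 with an outer limit of 20 kb and 0.0557 with 100 kb, and -0.00747 to 0.0641 with 1 library left out. The near minus far difference in single-list H3K27ac peaks, 10.8 percentage points, stayed above 0 under every alternative run. It was 7.84 with H3K27ac scores of at least 100, 12.3 with SOX10 scores of at least 100, 12.3 where replicate peaks had to share 50% of the shorter, 13.3 with distance from the summit, 8.92 with an inner limit of 5 kb, 9.74 and 11.7 with outer limits of 20 and 100 kb, and 8.72 to 13.7 with 1 library left out. The share of near sites whose nearest H3K27ac region overlapped another SOX10 site was 13.6% and 2.63% with H3K27ac and SOX10 scores of at least 100 and 5.21% to 16.6% with 1 library left out. The cause of these shifts was not tested. Dropping chromosome 6 left these results within the limits above. Merging H3K27ac regions less than 1 kb apart cannot change which sites are near or far, since no such site lies in so short a gap. Only the share of near sites whose nearest H3K27ac region overlapped another SOX10 site could move under it, and it was 10.0%. For the other results the merging says nothing about stability. Dropping sites on over 10 times the genome-wide input removed no near or far site and so says nothing about stability. No paired analysis was possible because no result comes from a test that could take the replicate number as a block. Differences between sets were taken within each library and are given as such. The alternatives for the SOX motif count were not run. At a median of 12 and 16 tags per summit, single near sites cannot be ranked finely.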
